A study of Mus musculus with 4 samples.

Results

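The 10 integrin genes described here, Itgae, Itga4, Itgb7, Itgb1, Itgal, Itgb2, Itga1, Itga6, Itgav and Itgb3, encode the adhesion receptors that T cells use to home to tissues and to stay in them. They are 10 of the 18539 genes measured in mouse Th2 cells that had differentiated with or without SH-2251, a small molecule of the thioamide type that limits the output of the cytokine interleukin 5 (IL-5). The family was chosen by measured values of these same arrays, on which Itgae was higher and Itga4 lower with SH-2251, so that the values of those 2 genes with the compound are a description and not a test. The other members were added for their place in the family.

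The study asked how SH-2251 alters the genes expressed by Th2 cells. Splenic CD4 T cells of female C57BL/6J mice were activated for 2 days through plate-bound anti-TCR-β (3 µg/ml) with anti-CD28 (1 µg/ml) antibody. IL-4 at 10 ng/ml and IL-2 at 2.5 ng/ml were present. The cells were then kept for 3 more days in both cytokines, a protocol that all groups shared. SH-2251 was either absent (control) or present throughout, at 1 µM in the first phase and at 1 mM in the second as the labels write it. The study's methods name a far lower usual concentration, so the dose behind these arrays is uncertain. Those methods also start from naive CD4 T cells and list an anti-IFN-γ antibody for Th2 culture. At the end, the cells were left resting or were restimulated for 4 h with plate-bound anti-TCR-β. That gave 4 conditions (control resting, SH-2251 resting, control restimulated and SH-2251 restimulated) with 1 microarray each, all on the same slide. No difference below has a replicate check, and no p-value was computed. The errors given are technical SDs from the scanner software's error of each spot, and cover neither the culture nor the animal. For bright probes they are close to 0.20 whatever the gene, so they are not a spread measured for that gene. The 4 arrays were alike in overall brightness, with 56.0% to 56.7% of probes well above background on each and no saturated spot. All 8 T cell markers and all 7 Th2 markers checked were well above background on every array, Gata3 and Il4 among them. With SH-2251, 6 of the 7 Th2 markers were lower at rest and 4 after restimulation. In log2 units, Il5 differed by -3.86 and -3.01 and Il13 by -1.32 and -0.57. Gata3 differed by -0.17 and -0.033, Il4 by -0.10 and -0.23, and Ccr8 was higher by 0.85 and 0.54. RNA came from whole cultures, in which fewer cells of a type and less RNA per cell cannot be told apart.

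Integrins are pairs of an α and a β subunit that reach the cell surface together. In T cells, αE pairs with β7 (CD103, the receptor for E-cadherin that holds T cells within epithelia), and α4 pairs with β7 (the gut homing receptor for MAdCAM-1) or with β1 (VLA-4, the receptor for VCAM-1 and fibronectin). αL pairs with β2 (LFA-1, the receptor for ICAMs), α1 and α6 pair with β1 to bind collagen and laminin, and αv pairs with β3 or β1 to bind vitronectin, fibronectin and latent TGF-β.

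Signals are given as log2 of the processed intensity minus the 75th percentile of that array, so that a value of 0 is the brightness that 25% of probes exceed. Probes differ in how well they bind, so the level of one gene was not set against the level of another. All 10 members had a probe, 16 probes in total, and 9 of the 10 were well above background on all 4 arrays. The exception, Itga1, was so on 3. With SH-2251, 2 of the 10 integrins were past 2-fold in resting cells and 2 in restimulated cells. Of all genes compared, 5.16% were past 2-fold in resting cells and 5.43% in restimulated cells. Those are the contrasts by which the family was chosen, so nothing is read from that excess.

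**Figure D1:**
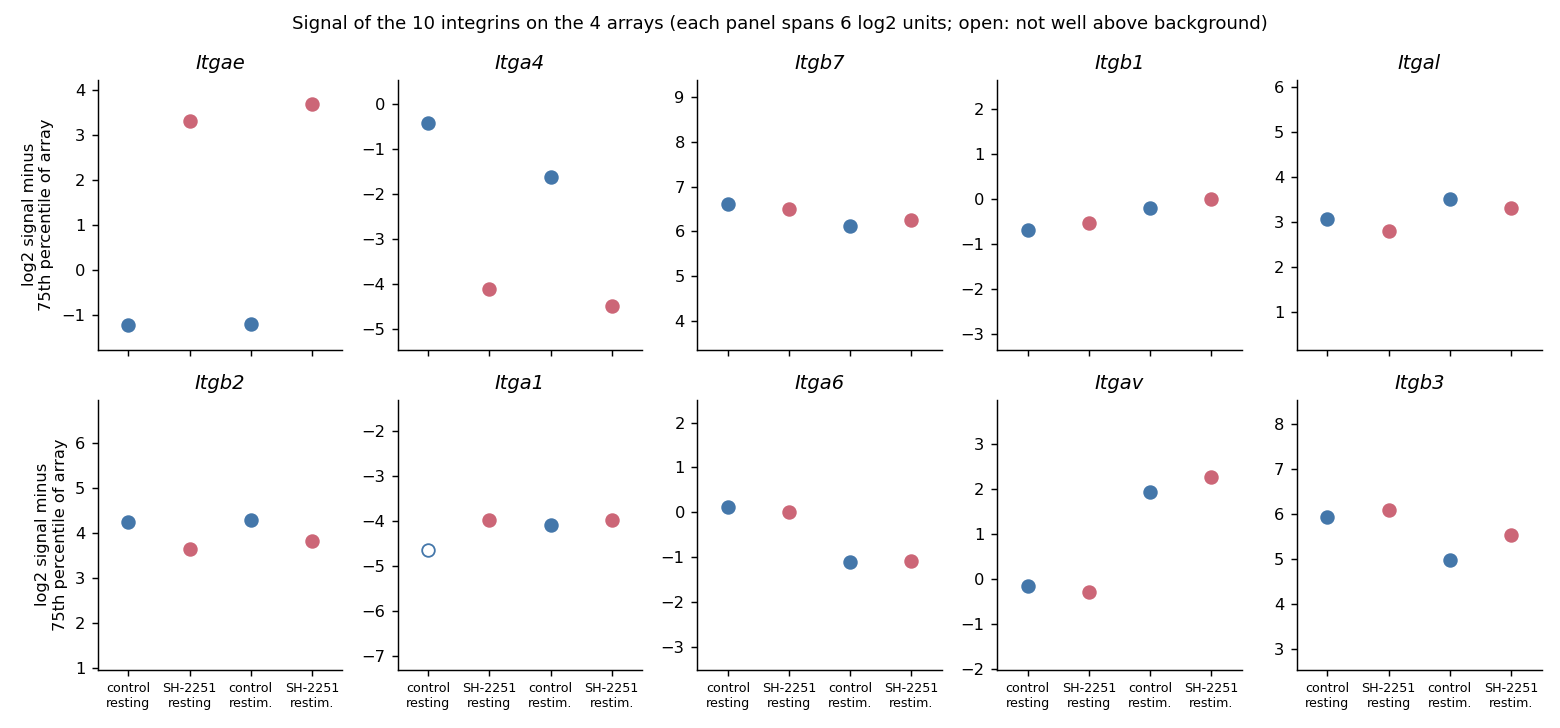
Each panel shows 1 integrin, with its log2 signal relative to the array's 75th percentile on the y axis and the 4 arrays on the x axis (blue control, red SH-2251, 1 array each, open symbol not well above background). Itgae was high and Itga4 low on both SH-2251 arrays, and Itgav was high on both restimulated arrays, at 1.94 and 2.26.

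Itgae encodes αE. Its single probe (RefSeq NM_008399) gave log2 signals of -1.21 in control resting cells, 3.33 in SH-2251 resting cells, -1.20 in control restimulated cells and 3.69 in SH-2251 restimulated cells. Both SH-2251 arrays thus lay far above both control arrays, while the control arrays were within 0.016 of each other. As processed intensities, the control arrays read 242 and 218 and the SH-2251 arrays 6183 and 7526. The difference with SH-2251 was 4.54 ± 0.21 (log2, technical SD), or 23.3-fold, at rest and 4.89 ± 0.21, or 29.6-fold, after restimulation. Only 3 of 12684 genes at rest and 4 of 12623 after restimulation, Itgae counted in both, were as far up. Within the SH-2251 cells, restimulation added 0.36 ± 0.20.

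Itgb7 encodes the only β subunit known to pair with αE. Its log2 signals were 6.62 and 6.50 in control and SH-2251 resting cells, and 6.13 and 6.25 in control and SH-2251 restimulated cells. The 4 values lay within 1 log2 unit, and the SH-2251 differences, -0.12 ± 0.20 at rest and 0.12 ± 0.20 after restimulation, were within the technical SD. The log2 difference of Itgae minus that of its partner was 4.66 ± 0.29 at rest and 4.77 ± 0.29 after restimulation. On restimulation Itgb7 differed by -0.48 ± 0.20 in control and by -0.24 ± 0.20 in SH-2251 cells.

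Itga4 encodes α4, and 3 probes (NM_010576) read it. The brightest gave log2 signals of -0.41 in control resting, -4.11 in SH-2251 resting, -1.62 in control restimulated and -4.49 in SH-2251 restimulated cells. The SH-2251 arrays lay below both control arrays, at processed intensities of 35.7 and 25.9 against 423 and 163. The difference with SH-2251 was -3.70 ± 0.30 (13.0-fold lower) at rest and -2.88 ± 0.34 (7.34-fold lower) after restimulation. Those SH-2251 intensities sit just above the dimmest probes that passed on the same arrays (log2 signals of -4.65 and -4.74), so the sizes depend on the processing. With normexp, which models the background and also adds 50 to every intensity, they were -1.18 and -1.47, and -2.17 and -1.47 once spots of uneven background were left out. The second probe exceeded background in the control cultures of both states but not in the SH-2251 ones, which gives bounds of at least 2.18-fold lower at rest and at least 1.40-fold lower after restimulation. The third was well above background in control resting cells only and gives no bound above 1.

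**Figure D2:**
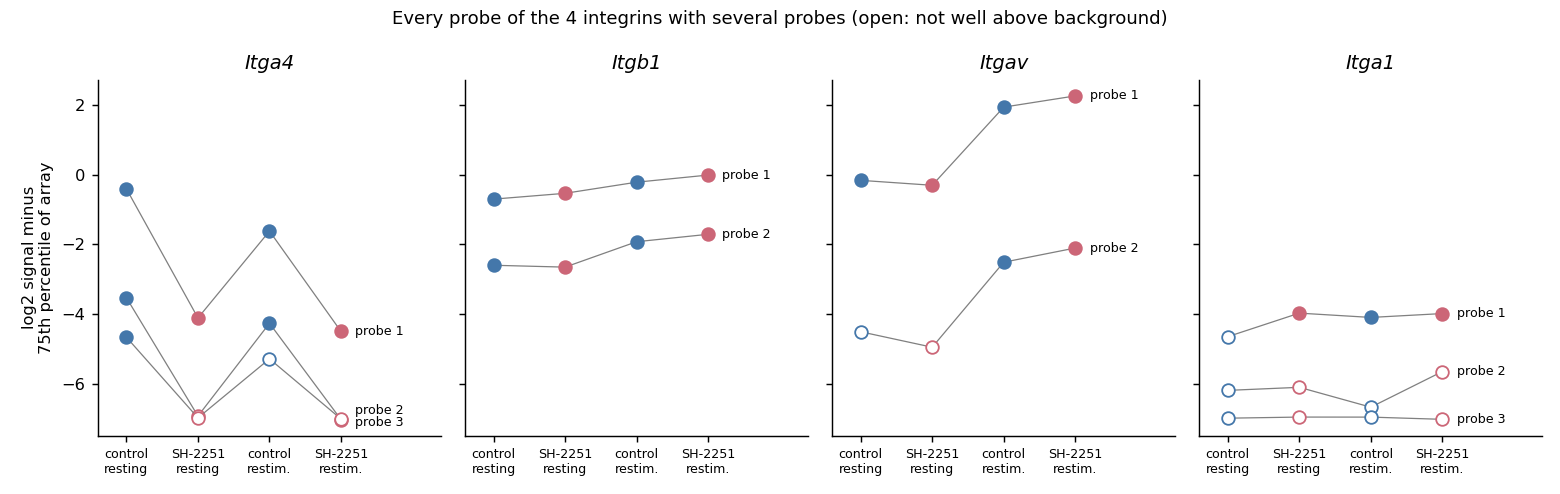
Log2 signals (relative to each array's 75th percentile) of every probe of the 4 integrins with several probes, with the 4 arrays on the x axis, lines joining the values of 1 probe and open symbols for arrays where it was not well above background. Probe 1 of Itga4 was lower with SH-2251 while its probes 2 and 3 have no measured signal there, and both Itgav probes are higher after restimulation, while probes 2 and 3 of Itga1 were never well above background.

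Neither partner of α4 shared the difference. Beside Itgb7, the Itgb1 gene encodes β1, the common partner of α1, α4, α6 and αv. The array holds 1 of its probes in 10 spots, of which 8 to 10 an array were usable. Their mean log2 signals were -0.70, -0.53, -0.22 and -0.011 in control resting, SH-2251 resting, control restimulated and SH-2251 restimulated cells, with SDs between spots of 0.032 to 0.052. The spots of the control resting array (-0.78 to -0.63) and of the SH-2251 resting array (-0.62 to -0.47) did not overlap, but they are repeats of 1 sample on each array. The technical SD is averaged over the spots and is not reduced for their number. Against it, the SH-2251 differences of 0.17 ± 0.21 and 0.20 ± 0.20 were not larger. The log2 difference of Itga4 minus that of Itgb1 was -3.86 ± 0.37 at rest and -3.08 ± 0.40 after restimulation, and minus that of Itgb7 it was -3.58 ± 0.36 and -2.996 ± 0.398. A second Itgb1 probe gave SH-2251 differences of -0.053 and 0.21.

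RefSeq (GRCm38.p6) gave a start site window for 5 of the 10 members, Itga1, Itga4, Itgav, Itgb1 and Itgb7. Shown here are the 250 bases before the start of Itga4, which was lower with SH-2251, of its partner Itgb7, which was not, and of Itgav, which was higher after restimulation. Capitals mark AATC, the core of the site bound by the repressor Gfi1, and TGTGGT, the site bound by RUNX factors, on either strand, so that the reverse strand reads as GATT and ACCACA.
Itga4, chr2:79255176-79255425, plus strand: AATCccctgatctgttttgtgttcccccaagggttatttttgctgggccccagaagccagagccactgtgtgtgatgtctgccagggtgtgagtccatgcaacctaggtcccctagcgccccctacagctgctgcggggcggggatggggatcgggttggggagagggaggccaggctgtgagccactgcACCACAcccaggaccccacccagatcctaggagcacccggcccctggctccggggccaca
Itgb7, chr15:102231936-102232185, minus strand: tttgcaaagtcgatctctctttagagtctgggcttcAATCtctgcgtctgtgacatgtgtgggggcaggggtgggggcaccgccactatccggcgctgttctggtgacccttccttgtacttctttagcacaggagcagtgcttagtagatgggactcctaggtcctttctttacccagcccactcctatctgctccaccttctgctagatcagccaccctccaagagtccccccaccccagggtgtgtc
Itgav, chr2:83724147-83724396, plus strand: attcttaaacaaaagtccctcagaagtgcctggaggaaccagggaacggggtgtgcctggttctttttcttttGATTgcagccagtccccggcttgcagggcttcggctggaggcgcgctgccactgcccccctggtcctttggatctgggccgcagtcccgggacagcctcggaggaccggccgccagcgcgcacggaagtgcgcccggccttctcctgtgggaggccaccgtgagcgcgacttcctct
The AATC core occurred once in each of the 3 windows, 250 to 247 bases before the start in Itga4, 214 to 211 in Itgb7 and 177 to 174 in Itgav, the last on the reverse strand. It was absent from the windows of Itga1 and Itgb1. As 69% of all 32851 windows of this length hold those 4 letters, the matches say little. TGTGGT (14% of windows) occurred in Itga4 alone of the 5, on the reverse strand 60 to 55 bases before the start. AGATAA, the site bound by GATA factors (9.99% of windows), and CCGGAA, the site bound by ETS factors (12%), were searched on both strands and were in none of the 5. These are letter matches and were not tested as binding sites.

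**Figure D3:**
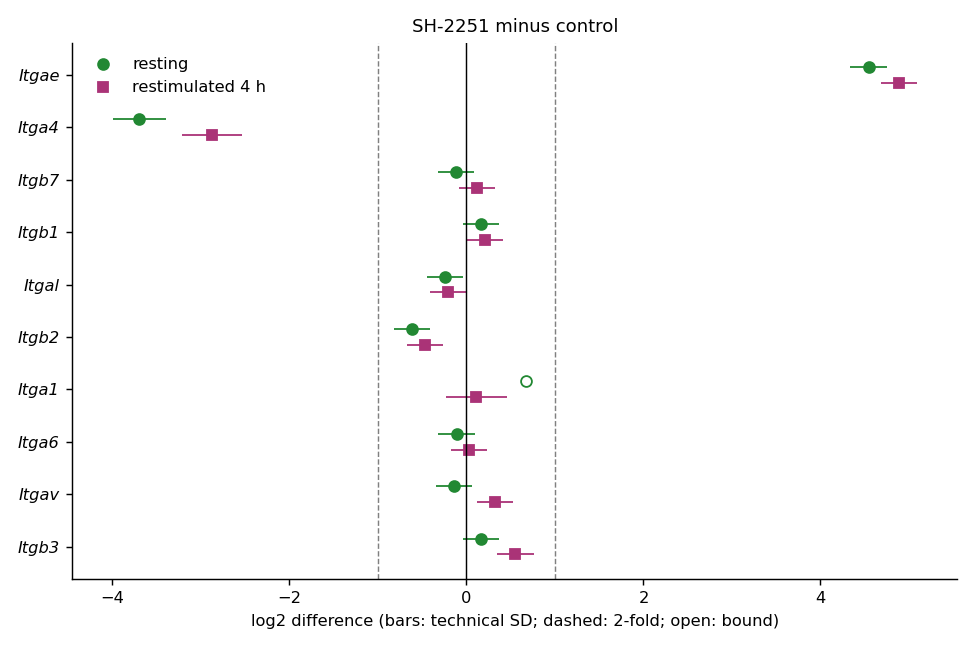
Log2 difference between SH-2251 and control for each integrin, in resting (circles) and restimulated (squares) cells, with bars of 1 technical SD, dashed lines at 2-fold and an open symbol for a bound. Itgae (4.54 and 4.89) and Itga4 (-3.70 and -2.88) lie outside the dashed lines, and the other 8, Itga1 at rest as an open symbol, lie between them.

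Itgal and Itgb2 encode the 2 chains of LFA-1, which holds T cells to antigen-presenting cells and vessel walls. Itgal signals were 3.06 and 2.81 (control and SH-2251, resting) and 3.52 and 3.31 (control and SH-2251, restimulated). Itgb2 signals were 4.25, 3.64, 4.29 and 3.82 in the same order. Each chain was lower with SH-2251 in both states, by -0.25 ± 0.20 and -0.21 ± 0.20 for Itgal and by -0.61 ± 0.20 and -0.47 ± 0.20 for Itgb2. Itgb2 had the largest negative difference of the members after Itga4, at 1.53-fold, and 7% of genes at rest and 10.6% after restimulation were as far down. Both differences of Itgal were hardly beyond the error. Both chains kept their sign under every alternative processing.

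Itga1 encodes α1, which with β1 makes the collagen receptor VLA-1 found on resident T cells. The best of its 3 probes read -4.64 in control resting cells, not well above background, and -3.97, -4.09 and -3.98 in SH-2251 resting, control restimulated and SH-2251 restimulated cells. At rest it was 1.60-fold higher with SH-2251 (0.67 ± 0.41), against a control signal not well above background. That difference was 0.12 with normexp without uneven spots and 0 with the mean of its probes. After restimulation the difference was 0.11 ± 0.35. The other probes were below that limit on every array, so little can be said of this gene.

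Itga6 encodes α6 of the laminin receptor. Its signals of 0.12 and 0.00 (control and SH-2251, resting) and of -1.11 and -1.08 (control and SH-2251, restimulated) differed with SH-2251 by -0.11 ± 0.20 and 0.028 ± 0.21, within the error. The resting arrays were both higher than the restimulated arrays. On restimulation Itga6 differed by -1.23 (2.34-fold lower) in control and by -1.09 (2.12-fold lower) in SH-2251 cells, with a technical SD of 0.21 each.

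Itgav encodes αv. Its brighter probe read -0.16 and -0.30 in control and SH-2251 resting cells and 1.94 and 2.26 in the restimulated ones. Both restimulated arrays lay above both resting arrays. The increase on restimulation was 2.10 ± 0.20 (4.28-fold) in control and 2.56 ± 0.20 (5.90-fold) in SH-2251 cells, a size that 1.67% and 1.13% of genes reached. The dimmer probe was well above background after restimulation only. It was 3.98-fold higher in control cells, against a resting signal not well above background, and at least 5.86-fold higher in SH-2251 cells. With SH-2251, Itgav differed by -0.14 ± 0.20 at rest and 0.32 ± 0.20 after restimulation.

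Itgb3 encodes β3, best known from platelets. Its signals were 5.93 and 6.10 at rest (control and SH-2251) and 4.98 and 5.54 after restimulation. The platelet genes Pf4, Ppbp and Gp9 were not well above background on any array. Itgb3 was lower after restimulation, by -0.95 ± 0.20 (1.93-fold) in control and -0.56 ± 0.20 in SH-2251 cells, against the increase of its partner Itgav. Itgav therefore gained on Itgb3 by 3.05 ± 0.29 and 3.12 ± 0.29. With SH-2251, Itgb3 differed by 0.17 ± 0.20 at rest and by 0.55 ± 0.20 after restimulation.

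Across the family, restimulation took 3 of 10 members past 2-fold in control cells (Itga4 and Itga6 down, Itgav up), where 14.6% of all genes compared were past it, and 2 of 10 in SH-2251 cells (Itga6 down, Itgav up), where 14.1% were. With 10 members, nothing is read from those shares, and several of the calls depend on the processing. In control cells Itga4 was under 2-fold with normexp (-0.81) and with the mean of its probes (-0.85). In SH-2251 cells Itga6 was under it with normexp (-0.94, or -0.96 without uneven spots), while Itga4 passed it with normexp (-1.11) but not once uneven spots were left out (-0.11). Itga4 differed by -1.21 ± 0.21 on restimulation in control cells and by -0.39 ± 0.41 in SH-2251 cells, in which its signal was already near the limit. Itgb1 and Itgal were higher after restimulation in both cultures, by 0.48 and 0.52 for Itgb1 and by 0.46 and 0.50 for Itgal. Itgb2 differed by 0.034 and 0.18.

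**Figure D4:**
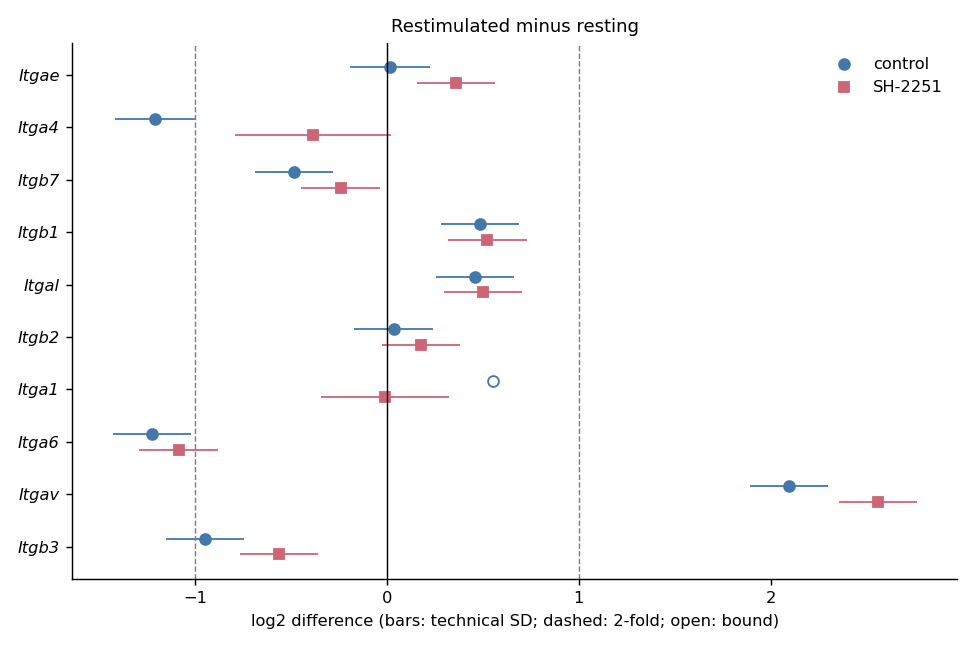
Log2 difference between restimulated and resting cells for each integrin, in control (blue circles) and SH-2251 (red squares) cultures, with bars of 1 technical SD, dashed lines at 2-fold and an open symbol for a bound. Itgav lies highest (2.10 and 2.56) and Itga6 lies lowest in SH-2251 cells (-1.09).

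The SH-2251 difference after restimulation minus that at rest was above 0 for all 9 members that had a value on all 4 arrays, from 0.038 for Itgb1 to 0.82 ± 0.46 for Itga4, with a median of 0.24. Itgae gave 0.34, Itgb3 0.39 and Itgav 0.46 (technical SD 0.29 for these 3). It was above 0 for 52.5% of all genes, whose median was 0.012. None of the 9 was past 2-fold, where 1.22% of all genes were, and 5 of the 9 were within the technical SD. The 4 arrays behind these values are the same for each gene, so the common sign is not independent evidence.

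**Figure D5:**
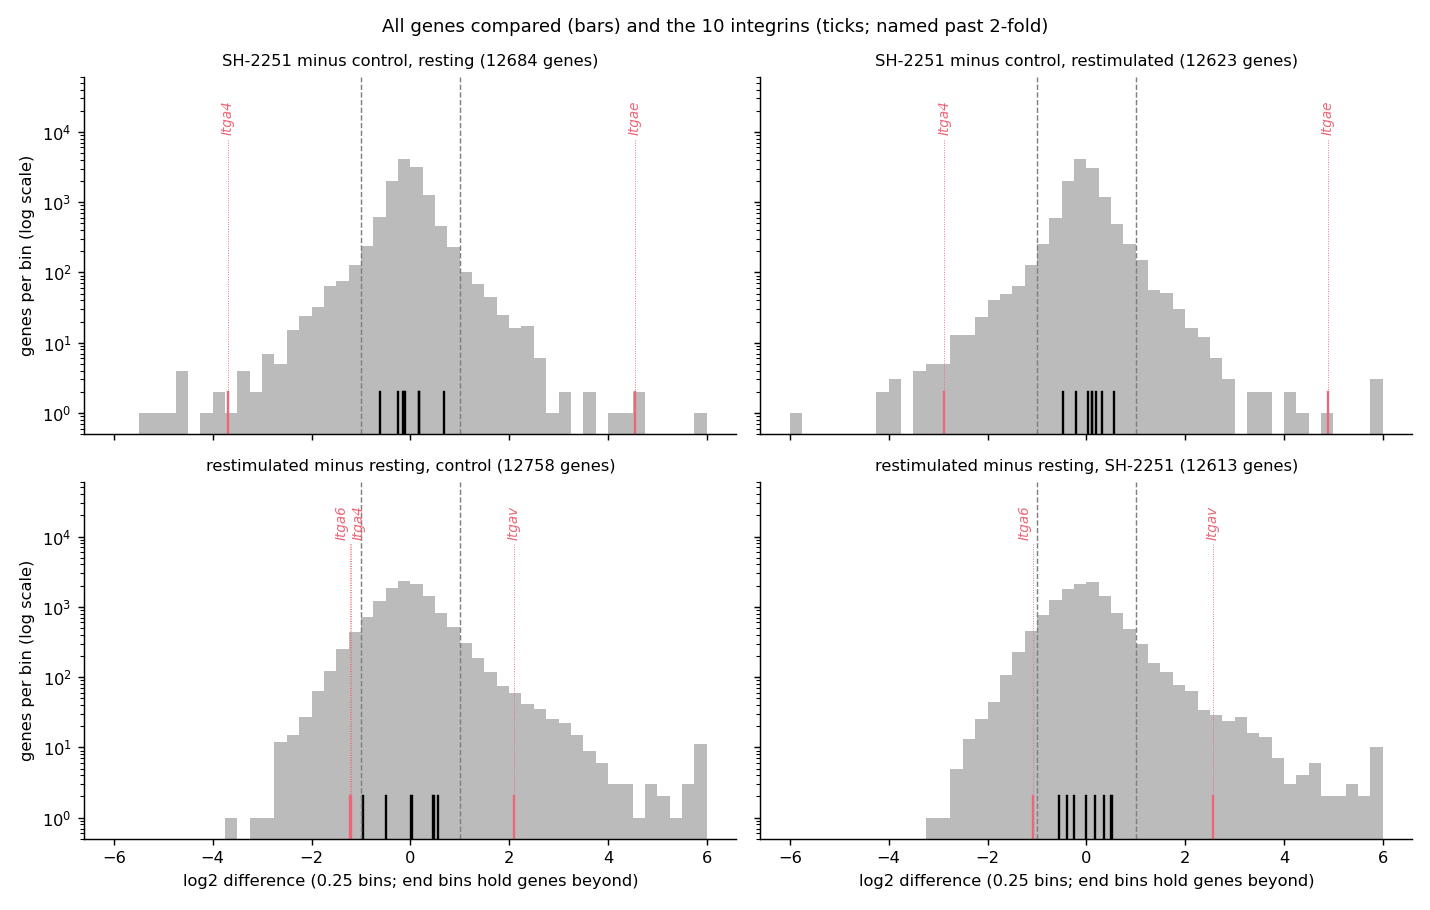
Number of genes (log axis) against log2 difference for the 4 comparisons, with the 10 integrins as ticks, red and named where past 2-fold (dashed lines). With SH-2251, Itgae and Itga4 sit in the sparse tails (3 and 11 genes as far out at rest) while the other 8 lie within the central bulk. On restimulation Itgav lies furthest out of the members, at 2.10 and 2.56.

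Other genes of the integrin system were counted in 5 lists, of which members past 2-fold with SH-2251 are named, at most 6 a list. Of all genes compared, 5.16% were past 2-fold at rest and 5.43% after restimulation. With lists this short, nothing is read from the counts beside those shares. Of 16 other integrin subunits, 13 had a probe, and 7 at rest and 6 after restimulation could be compared. With SH-2251, 0 of these were past 2-fold in either state, with medians of -0.43 at rest and 0.059 after restimulation, where the medians of all genes were -0.055 and -0.063. At rest normexp gave a median of 0.51, with 1 subunit higher past 2-fold, but -0.32 and 0 past 2-fold once uneven spots were left out. After restimulation the sign was not stable, at -0.033 with normexp, with or without those spots. The members' own medians were -0.12 and 0.12. Itgax, the dendritic cell integrin gene, and Itgam, of macrophages, were not well above background on any array. On restimulation, subunits chosen after their values were seen also differed. Itga3, a laminin receptor chain, was higher by 2.15 in control and 2.33 in SH-2251 cells. Its 2 other probes gave 1.10 to 2.22 in control and 0.68 to 2.52 in SH-2251 cells. Itga7 was lower by -2.57 and -2.33, and Itgb5, another partner of αv, by -1.17 and -1.06.

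Talin, kindlin-3 and Rap1 act from inside the cell to switch integrins on. Of 36 genes for such activators and adaptors, 33 were compared at rest, where 2 were past 2-fold and lower. Of all genes compared at rest, 5.16% were past 2-fold. Rap1gap2, which switches Rap1 off, differed by -1.61 ± 0.34, with a bound of -0.17 or lower from its other probe, and Parva, an adaptor of integrin-linked kinase, was at least 2.94-fold lower. With normexp without uneven spots 0 were past 2-fold. After restimulation 0 of 30 were past it, beside 5.43% of all genes. The medians were -0.088 and -0.063, and about 0 at rest under quantile normalization. Tln1 (talin) differed by -0.098 and -0.052 and Fermt3 (kindlin-3) by -0.34 and -0.29.

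Integrin ligands were also measured, though in a T cell culture they need not come from the cells that bind them. E-cadherin (Cdh1), the ligand of αEβ7, and VCAM-1 (Vcam1), 1 of the ligands of α4β1, were not well above background on any array. Madcam1, for the ligand of α4β7, was well above background on all 4, though dim at -4.27 to -4.01. It differed by -0.050 and -0.11 with SH-2251. Past 2-fold were 5.16% of all genes compared at rest and 5.43% after restimulation. Of 36 ligand genes with a probe, 18 were compared at rest, with 1 lower and 0 higher past 2-fold. After restimulation 23 were compared, with 5 lower and 2 higher. The latter count was 2 lower and 1 higher with normexp and also where both arrays had to be above background. The medians were -0.25 and -0.11. At rest the median was 0.072 with normexp, but -0.19 once uneven spots were left out. Tgfb3, the latent cytokine that αv integrins bind, had signals of 2.59, -2.48, 0.69 and -2.67 in control resting, SH-2251 resting, control restimulated and SH-2251 restimulated cells, lower with SH-2251 by -5.07 ± 0.22 and -3.35, and both SH-2251 arrays lay below both control arrays. Spp1 (osteopontin, bound by αv and α4 integrins) read 0.05, -0.71, 3.65 and 1.15 in that order, a difference of -0.77 at rest and -2.50 after restimulation. After restimulation Lama4, a laminin chain, was at least 2.39-fold lower and Fn1, fibronectin, at least 2.32-fold lower. The genes that were higher were Icam1, the main ligand of LFA-1, by 1.21 ± 0.20 (0.37 at rest), and Ccn3, a matrix protein, at least 2.25-fold.

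Tetraspanins and other membrane proteins travel with integrins. Of 17 such genes, 15 were compared in each state. Beside 5.16% and 5.43% of all genes, 0 at rest and 1 after restimulation were past 2-fold. That was Plaur, the urokinase receptor, which partners β1, β2 and β3 integrins, with signals of -4.17, -4.30, -0.21 and 1.05 (order as above) and a difference of -0.13 at rest and 1.26 after restimulation. Restimulated minus resting, its difference was 3.96 in control and 5.35 in SH-2251 cells. Its other probe gave 2.06 and 3.25 (values or bounds). The resting signals lay near the dimmest probes that passed (-4.78 and -4.65), so these sizes are uncertain. After restimulation 14 of the 15 were above 0, with a median of 0.26, where 42.1% of all genes compared were above 0. At rest the median was 0.18, and -0.070 with normexp but 0.15 once uneven spots were left out.

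Other adhesion receptors of T cells were all 22 compared. Of all genes compared, 5.16% at rest and 5.43% after restimulation were past 2-fold. Of the 22 receptors, 2 were lower and 1 higher past 2-fold at rest, and 1 was lower and 1 higher after restimulation. Their medians were -0.055 and 0.21. With normexp 0 were lower and 1 was higher past 2-fold in each state, and the resting median had no stable sign (0.079 under quantile normalization). Jaml, a junctional adhesion molecule-like receptor, read 0.96 and 3.04 at rest (control and SH-2251) and 0.09 and 1.32 after restimulation, higher by 2.08 ± 0.20 and 1.22. Klrg1, an inhibitory receptor that like αEβ7 binds E-cadherin, read -3.18, -6.30, -2.31 and -3.99. It was at least 2.77-fold lower at rest, where SH-2251 cells were not well above background, and lower by -1.69 after restimulation. Pecam1 (CD31) was lower by -1.02 ± 0.20 at rest and by -0.48 after restimulation.

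The genes whose pattern over the 4 arrays was most like that of Itgae, by root mean square distance of centred log2 signals among 11501 genes, were Wls (0.24), Slpi (0.50) and Ifi211 (1.04). Wls, which carries Wnt proteins to the surface, read -2.36, 1.70, -2.31 and 2.13. Slpi, a secreted protease inhibitor, read 2.90, 6.64, 3.53 and 7.75. Those nearest to Itga4 were Kremen2 (0.17), Ccdc33 (0.20) and Osgin1 (0.35), of which Kremen2, a receptor for Dickkopf proteins, read 2.38, -0.89, 1.33 and -1.35. A distance over 4 arrays is a description only.

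αE is also carried by CD8 T cells, regulatory T cells and dendritic cells, so their markers were read beside it. Of 6 CD8 T and NK cell markers with a probe, Klrb1c, Ncr1 and Klrk1 stayed at background on all 4 arrays, and the 3 that were detected were all higher with SH-2251 in both states. The summed linear level of the list (in units of the array's 75th percentile) was 0.32 and 0.35 in the control and 0.52 and 0.60 in the SH-2251 cultures, and Cd8a was higher by 1.45 at rest and 0.97 after restimulation. Klrd1 differed by 0.056 and 0.60, and Eomes, detected on the SH-2251 arrays only, was at least 0.61 and 0.38 higher in log2 units. Of 4 regulatory T cell markers, Foxp3 differed by 0.095 at rest and by 0.71 after restimulation, where the control signal was not well above background. Ikzf2 was higher by 1.26 and at least 1.40, Ikzf4 differed by -0.26 and 0.030, and Gpr83 was lower by -1.44 and -1.66. Their summed level was 3.22 and 12.5 in the control and 1.502 and 4.23 in the SH-2251 cultures. That sum is mostly Gpr83, whose log2 signals were 1.48 and 3.61 in the control and 0.041 and 1.96 in the SH-2251 cultures. It is therefore no measure of the list as a whole. Of 9 myeloid and dendritic cell markers, 6 (Cd14, Csf1r, Adgre1, Flt3, Zbtb46 and Xcr1) were well above background on all 4 arrays. Lyz2, S100a8 and Siglech were so on none. With SH-2251, 5 of the 6 were lower and 1 higher at rest, and 3 were lower and 3 higher after restimulation. Zbtb46 differed by -0.017 and 1.53, Csf1r by -0.58 and -0.072, and Xcr1 by -0.22 and -0.37. Cd14 differed by -0.14 and 0.070, Adgre1 by -0.10 and 0.089, and Flt3 by 0.18 and -0.11. The summed level of the list was 2.75 to 3.65, mostly from Adgre1, whose log2 signals were 1.20 to 1.51. Summed levels of B cell markers were 3.76 and 4.70 in the control and 5.39 and 5.81 in the SH-2251 cultures. The part of these cells in the integrin differences was not tested.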

How the data were processed

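Total RNA of each condition was labelled with Cy3 and hybridised to Agilent 44K mouse arrays, 1 array per condition. The deposited scanner files hold intensity values per spot, which the authors' Feature Extraction software (10.7.3.1) corrected for background (gProcessedSignal). The authors' processed table was deposited as log2 values. Its column medians were -3.72, -3.78, -3.70 and -3.74 (control resting, SH-2251 resting, control restimulated, SH-2251 restimulated), its 75th percentiles lay at 0, and 99.6% to 99.7% of its values were within 0.01 of log2 intensity minus a constant, so it is uncentred and on this scale.

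Control and outlier spots (77 to 106 an array) were left out, spots of a probe were averaged on the log2 scale, and the 75th percentile of each array (499 to 614) was subtracted. Of 41174 probes, 66.1% were named through RefSeq accessions, covering 18539 genes. The brightest probe stood for a gene, and every member's probes are given. A gene was compared if well above background on at least 1 array of the pair. If on 1 only, the difference is a bound against the dimmest probe that passed on the other array. Where the gene's own signal there lay above that probe, it was used instead, and the difference is no strict minimum. Technical SDs come from the software's spot errors, and 2-fold was the threshold used. Calculations used pandas 2.3.3 and limma 3.58.1 (normexp) and were tested on simulated data. The members and lists were chosen with earlier results of these data known. Named list genes were past 2-fold with SH-2251 in either state, at most 6 a list by size. Talin, kindlin-3, the ligands Cdh1, Vcam1 and Madcam1, and Itgax and Itgam are given as defining genes whatever their values. The array number limits the precision.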

Additional observations from a re-analysis of the deposited data

Results flagged for a closer look

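In 3 of the 10 integrins, SH-2251 differed in direction between resting and restimulated cells, with 1 array on each side, and the difference was not tested. Itgb7 differed by -0.12 at rest and 0.12 after restimulation, Itga6 by -0.11 and 0.028, and Itgav by -0.14 and 0.32 (log2). All of these values except that of Itgav after restimulation were smaller than the technical SD, 0.20 to 0.21, and the sign for Itgb7 at rest and for Itga6 after restimulation turned under at least 1 alternative processing.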

How the results depend on the processing

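No paired analysis was possible because each condition holds 1 array and the labels name no culture or animal that conditions share. Itgae stayed higher and Itga4 lower with SH-2251 under all 9 alternatives. Normexp, which adds 50 to every intensity, moved Itgae to 3.91 at rest and 4.54 after restimulation and Itga4 to -1.18 and -1.47. Without spots of uneven background it gave 4.17 and 4.54 for Itgae and -2.17 and -1.47 for Itga4. The mean of all probes gave -3.13 and -2.45 for Itga4. Of the 40 member differences (38 where both arrays had to be above background), 17 moved by more than the technical SD under normexp, 6 without uneven spots, 6 with the mean of probes, 2 under quantile normalization and 0 under the other 5. Median scaling, the authors' values and kept outlier spots were among those.

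Genes past 2-fold with SH-2251 at rest numbered 311 under normexp without uneven spots, 1421 with neither filter nor bound, and 1721 at 1.5-fold and 245 at 3-fold. After restimulation they were 310 (normexp), 308 (without uneven spots), 1628, 1773 and 246. For restimulation in control cells they were 1072, 1069, 4290 (1.5-fold) and 577 (3-fold), and in SH-2251 cells 1103 (without uneven spots), 2729 (neither), 4256 and 541. Under normexp 81.1% of calls at rest were higher, against 43.8%, and on restimulation 58.7% in control and 32.6% in SH-2251 cells, against 49.7% and 50.4%. The normexp background of the SH-2251 resting array was fitted at -152, and at 7.42 once 12 spots were left out. Without uneven spots 39.2% of calls with SH-2251 at rest were higher, and 59.8% on restimulation in SH-2251 cells. Small differences changed sign under some setting for Itgb7 and Itgb3 with SH-2251 at rest, Itga6 and Itga1 with SH-2251 after restimulation, Itgae and Itgb2 on restimulation in control cells, and Itga1 and Itgb7 on restimulation in SH-2251 cells. Probes near background, such as those of Itga1 and of Itga4 with SH-2251, limit the sizes that can be given.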
